A study of Mus musculus with 7 samples.

Results

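The genes described are 4 matrix metalloproteases (Mmp2, Mmp3, Mmp12, Mmp14), 3 tissue inhibitors of metalloproteases (Timp1, Timp2, Timp3) and both plasminogen activators (Plat, Plau). They were taken by symbol from the platform annotation, which gave these 9 genes 14 probe sets, out of 8251 genes and 10833 probe sets with a single symbol. Of the 9 genes, 6 had a signal of at least 100 in their highest RNA pool and were among the 4316 genes tested. Mmp2, Mmp3 and Plau did not reach this level in any pool and are described by their signals alone.

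Colon RNA of female CD-1 outbred mice, 10 to 12 weeks old when the experiment began, was hybridised to Affymetrix oligonucleotide arrays after repeated enemas. All mice had 6 enemas, either TNBS (trinitrobenzene sulphonic acid, which modifies proteins of the gut so that the immune system attacks them) in ethanol, or saline. Mice given TNBS were killed 3 days (TNBS-w6, 6 mice), 2 weeks (TNBS-w8, 4 mice), 4 weeks (TNBS-w10, 5 mice) or 6 weeks (TNBS-w12, 4 mice) after dosing ended, and the RNA of each set was pooled. Saline-w6 pooled 5 mice of the first time and was measured on 2 arrays, and Saline-w10 pooled 4 later mice, 2 from each of weeks 8 and 10. Each group was a single pool of mice, so no spread between mice is known, and no ethanol group without TNBS was analysed here. TNBS-w6 was set against Saline-w6, and TNBS-w8, TNBS-w10 and TNBS-w12 each against Saline-w10, a control that these 3 comparisons share. They are called matched below, but Saline-w10 mixes mice of weeks 8 and 10 and holds none of week 12. In the TNBS-w12 comparison, time and treatment therefore cannot be told apart.

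Matrix metalloproteases are zinc-dependent enzymes that cut collagens, elastin and other proteins of the extracellular matrix, and most are secreted as inactive proenzymes. Timps bind their active site and block them, and the plasminogen activators Plat (tissue type) and Plau (urokinase) make plasmin, which cuts fibrin and can activate several metalloproteases. In the inflamed bowel this system is known for matrix breakdown, ulceration and the remodelling that follows, with macrophages and stromal cells among its sources.

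Of the 9 genes, Mmp3, Mmp12, Mmp14, Timp1 and Plat had their highest signal in TNBS-w6, and promoters are shown for those of them with a window in the table, which leaves out Plat. The windows run from 250 bases before to 50 bases after a start site and come from RefSeq on the GRCm38.p6 build, on the plus strand. Capitals mark the letters TGANTCA, a core of the binding site of AP-1, a transcription factor of Fos and Jun proteins that is known to act on metalloprotease genes. The letters read the same on both strands.

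Mmp3, chr9:7445572-7445871: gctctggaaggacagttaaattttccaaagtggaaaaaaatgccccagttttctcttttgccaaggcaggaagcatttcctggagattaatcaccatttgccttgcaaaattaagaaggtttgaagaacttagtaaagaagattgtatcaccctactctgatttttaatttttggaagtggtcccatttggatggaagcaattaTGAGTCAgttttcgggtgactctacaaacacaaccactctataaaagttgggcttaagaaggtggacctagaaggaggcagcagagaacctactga

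Mmp12, first start site, chr9:7344147-7344446: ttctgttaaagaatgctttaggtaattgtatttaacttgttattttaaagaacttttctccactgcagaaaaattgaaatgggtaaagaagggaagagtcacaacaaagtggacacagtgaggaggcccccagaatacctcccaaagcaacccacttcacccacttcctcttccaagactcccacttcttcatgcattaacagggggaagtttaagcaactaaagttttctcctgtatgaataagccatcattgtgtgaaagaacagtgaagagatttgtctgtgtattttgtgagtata

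Mmp12, second start site, chr9:7347124-7347423: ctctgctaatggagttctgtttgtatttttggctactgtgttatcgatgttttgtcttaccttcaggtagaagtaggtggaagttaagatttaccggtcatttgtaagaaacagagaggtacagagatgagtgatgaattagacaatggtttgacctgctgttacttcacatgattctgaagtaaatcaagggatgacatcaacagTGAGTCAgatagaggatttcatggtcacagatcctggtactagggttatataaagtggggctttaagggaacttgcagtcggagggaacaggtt

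Timp1, chrX:20869916-20870215: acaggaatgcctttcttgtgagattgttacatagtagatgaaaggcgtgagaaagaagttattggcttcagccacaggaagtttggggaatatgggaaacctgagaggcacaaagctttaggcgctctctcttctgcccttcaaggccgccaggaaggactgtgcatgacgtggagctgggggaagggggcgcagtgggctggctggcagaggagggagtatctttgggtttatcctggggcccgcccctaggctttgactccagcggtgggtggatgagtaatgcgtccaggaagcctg

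Mmp14, chr14:54431348-54431647: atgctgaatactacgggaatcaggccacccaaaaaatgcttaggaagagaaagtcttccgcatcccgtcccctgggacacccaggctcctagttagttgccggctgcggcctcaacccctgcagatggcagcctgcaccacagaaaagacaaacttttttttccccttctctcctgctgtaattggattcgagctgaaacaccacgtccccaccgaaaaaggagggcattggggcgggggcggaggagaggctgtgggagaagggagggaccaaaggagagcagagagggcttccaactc

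The letters began 46 bases before the start site of Mmp3 and 44 bases before the second start site of Mmp12, both times as TGAGTCA. They were absent from the first window of Mmp12 and from the windows of Timp1, Timp2, Timp3 and Mmp14. Of all 32851 windows of this length, 7.81% held them. A match describes these letters alone, and Mmp2, Plat and Plau had no window in the table.

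Median signals of the arrays ran from 51.8 to 61.2. Signals under 50, which made up 45.4% to 49.2% of each array, were raised to 50 as a floor because their order is not dependable. All 11 epithelial markers and all 10 smooth muscle markers on the array passed the low-value filter, as did all 8 pancreas markers. Between the repeat arrays of Saline-w6, 31 of 4316 genes (0.718%) differed at least 2-fold, Timp1 among them, and 95% of genes differed by no more than 0.60 on the log2 scale (1.51-fold). The labels call these arrays replicates of total RNA from 5 mice and do not say whether they share an RNA preparation. Either way their spread holds no difference between sets of mice, so a gap between pools beyond it is not shown to exceed the variation among mice. Several markers of mast cells and of the pancreas, which is not part of the colon wall, were higher in some TNBS pools. Of 11 mast cell markers on the array 5 passed the filter. Their summed signal was 547.6 to 763 on the saline arrays and 3837.6, 2210.2, 1082.9 and 336.7 in TNBS-w6, TNBS-w8, TNBS-w10 and TNBS-w12. At week 6 Mcpt1, Mcpt2 and Cma2 were at 3.55, 4.00 and 1.79 on the log2 scale, but Kit was at -0.53. Tpsb2 was at 0.56 at week 6 and at -0.78, -0.70 and -1.07 at weeks 8, 10 and 12. The summed signal of 8 pancreas markers was 2329.8 to 2921.8 on the saline arrays and 6346.2, 8957.3, 2677.6 and 2660.6 in the TNBS pools in the same order. Cela1 alone gave 1235.4 to 1842.6 of the saline sums and 2208.6 of that of TNBS-w12. At week 12 Prss2, Ctrb1 and Cel were at -1.37, -1.55 and -1.22 on the log2 scale, and Pnliprp2 was at -1.03 at week 6. The part of mast cells and pancreas in the results was not tested. The share of higher calls over all genes moved with the scaling. At week 8, 66 genes were at least 2-fold higher and 75 lower, against 116 and 31 with equal array medians and 76 and 45 with quantile normalization. At week 10 the split was 36 and 28, against 66 and 17 with equal medians, and at week 12 it was 31 and 38, against 41 and 33. Equal medians raised the median gene by 0.17 on the log2 scale at week 8 and by 0.14 at week 10.

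**Figure D1:**
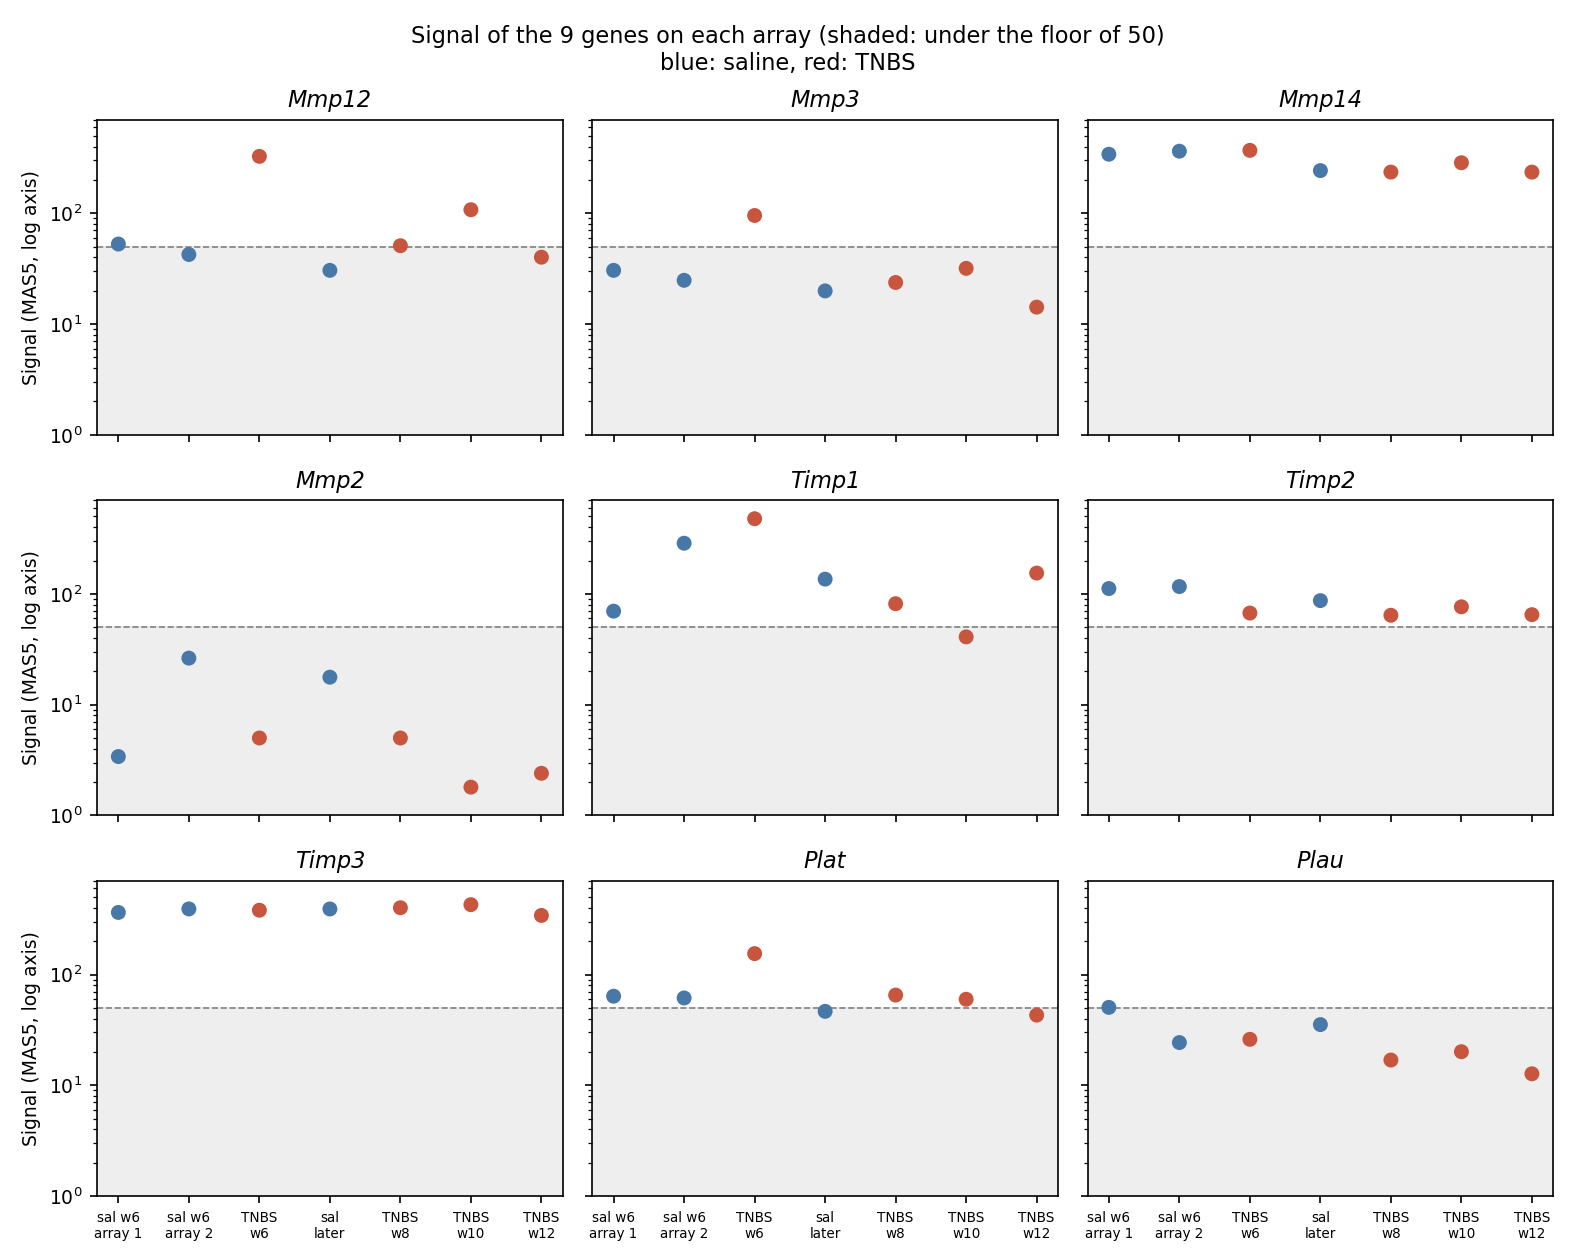
Signal of the 9 genes on each of the 7 arrays, on a log axis, with the probe set of the highest mean signal for each gene; blue points are saline and red points TNBS arrays, and the shaded area lies under the floor of 50. Mmp12, Mmp3, Mmp14, Timp1 and Plat have their highest point on TNBS-w6, Mmp14 by little (369.5 against 363.1), and both Saline-w6 arrays stand apart for Timp1, at 69.8 and 286.5.

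At week 6, 3 days after the last enema, Mmp12, Timp1 and Plat exceeded saline by 2-fold or more under TNBS, which makes 3 of the 6 genes tested. Over all 4316 genes, 3.54% differed at least 2-fold in either direction in this comparison and 2.55% were higher by that much. None of the 6 was lower by that much, against 0.996% of all genes. The median log2 difference of the 6 genes was 0.69, beside -0.02 over all genes tested. TNBS-w6 was the highest of the 7 arrays for 4 of the 6 (Mmp12, Mmp14, Timp1 and Plat) and for 14.7% of all genes. The 6 genes, and the gene lists below, were chosen with earlier results of these data known. Shares set beside those of all genes therefore do not test them as sets. Plat passed the low-value filter through TNBS-w6 alone and Mmp12 through TNBS-w6 and TNBS-w10, so the filter favoured a difference in them. Timp2 passed through Saline-w6 alone. At week 8 and at week 12 none of the 6 genes differed at least 2-fold, against 3.27% of all genes at week 8 (1.53% higher, 1.74% lower) and 1.6% at week 12 (0.718% higher, 0.88% lower). At week 10, 2 of the 6 did, Mmp12 higher and Timp1 lower, against 1.48% of all genes (0.834% higher, 0.649% lower).

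Mmp12, the macrophage elastase, had a signal of 52.7 and 42.4 on the Saline-w6 arrays and 326.1 in TNBS-w6. It read 30.5 in Saline-w10, 50.9 in TNBS-w8, 107.6 in TNBS-w10 and 40.1 in TNBS-w12. Both TNBS-w6 and TNBS-w10 thus lay above every saline array, and TNBS-w8 and TNBS-w12 lay within the range of the saline arrays. At week 6 the signal was at least 6.35-fold higher than in saline, and at week 10 at least 2.15-fold higher. In the order of pools TNBS-w6 stood 1.60 above TNBS-w10 on the log2 scale, and that pool stood 1.07 above Saline-w6. Both gaps are wider than the 0.60 that held 95% of genes between the repeat arrays, and those among the remaining 4 pools are not, a yardstick without the variation among mice.

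The Mmp12 values come from a probe set with the suffix _r_at, which Affymetrix used where a selection rule for probes had been dropped. The second probe set, designed on the same transcript, read 53.3 in TNBS-w6 and between 2 and 25.3 on the other 6 arrays. It therefore was highest on the same array, and it stayed under the floor at week 10, where it read 14.3. With the mean of both probe sets Mmp12 was at 1.38 on the log2 scale at week 6 and at 0.55 at week 10, under 2-fold.

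Macrophage markers moved with Mmp12 at week 6. Of 21 markers on the array 11 were tested, 6 of these were at least 2-fold higher in TNBS-w6 (2.55% of all genes were), and 10 of the 11 had their highest signal there (14.7% of all genes did). Arg1, 1 of the 6, passed the filter through TNBS-w6 alone, with 169.9 against 19.9 or less on the other arrays. Tyrobp, an adaptor of activating receptors on myeloid cells, was 4.22-fold higher, and the complement component C1qb 2.14-fold higher. The summed signal of the 11 markers was 7774.3 and 7223.1 on the Saline-w6 arrays and 10940.3 in TNBS-w6. At week 10, where Mmp12 was again higher, the sum was 8241 against 8032.3 in Saline-w10. None of the 11 was at least 2-fold higher then (0.834% of all genes were). Cd14, Ctss and Lgals3 made up most of these sums, and at week 10 Cd14 was at 0.65 and Lgals3 at -0.45 on the log2 scale. Of the 11 markers 7 lay above 0 and 3 below at week 10, with a median of 0.17, beside -0.004 over all genes. Adgre1 (F4/80), Msr1, Marco, Itgam, Fcgr3 and Fcer1g lay under the floor on all 7 arrays. In whole colon, more cells of a type and more RNA per cell cannot be told apart, and the part of macrophage number in the Mmp12 signal was not tested.

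Mmp3, or stromelysin 1, which cuts many matrix proteins and can activate other metalloproteases, read 95.4 in TNBS-w6. It read 30.5 and 24.8 on the Saline-w6 arrays, 19.9 in Saline-w10, and 23.7, 31.8 and 14.2 in TNBS-w8, TNBS-w10 and TNBS-w12. TNBS-w6 was the only array of the 7 above the floor, which gives a difference of at least 1.91-fold. Its highest signal lay just under the 100 that the filter asks for, so Mmp3 was in no test.

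Mmp14, a membrane-bound metalloprotease that activates Mmp2, read 340.8 and 363.1 on the Saline-w6 arrays and 369.5 in TNBS-w6. It read 242.6 in Saline-w10 and 235.2, 285.6 and 235.1 in TNBS-w8, TNBS-w10 and TNBS-w12. The 3 week 6 arrays lay above all 4 later arrays whatever the treatment, a pattern that 9.71% of all genes tested shared. Saline-w10 was 1.45-fold lower than Saline-w6, whereas the matched TNBS differences lay between -0.05 and 0.24 on the log2 scale. The 3'/5' signal ratio of Actb, which depends on how intact the RNA is, split the arrays in the same way: it lay from 1.14 to 1.24 on the early arrays and from 0.798 to 0.818 on the others. The same ratio of Gapdh did not split them, at 0.912 to 0.942 on the early arrays and 0.869 to 1.00 on the others. The part of RNA quality in the Mmp14 signal was not tested. No neighbouring pools in its order differed beyond the repeat arrays' spread.

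Mmp2, gelatinase A, is made mainly by stromal cells and is the enzyme that Mmp14 activates. Its 2 probe sets read between 1.8 and 26.3 on all 7 arrays, so no level or difference can be given for it.

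**Figure D2:**
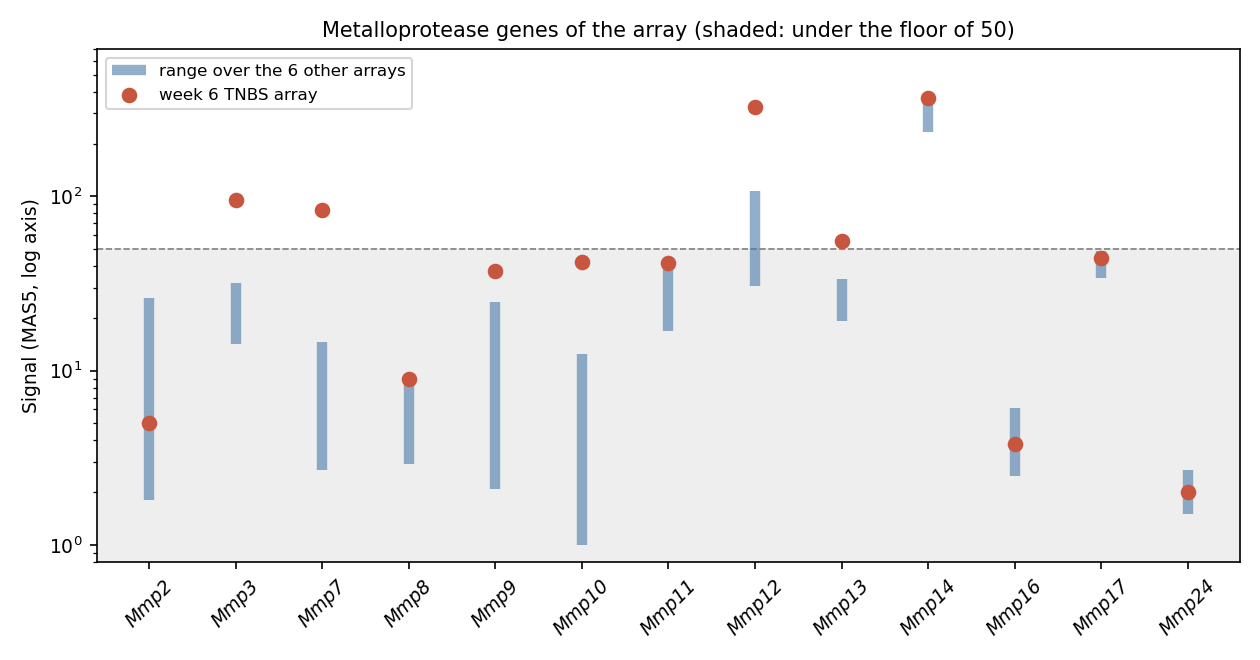
Signal of the 13 metalloprotease genes of the array, on a log axis, with TNBS-w6 as a red point and the range of the 6 other arrays as a blue bar; the shaded area lies under the floor of 50, and values are to be compared within a gene only. Mmp3, Mmp7 and Mmp13 lie above the floor on TNBS-w6 alone.

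The rest of the metalloprotease family gave few measurable signals. Of 13 members on the array only Mmp12 and Mmp14 passed the filter, beside 4316 of all 8251 genes. Another 8 lay under the floor on every array, among them the neutrophil enzymes Mmp8 and Mmp9. The other 3 (Mmp3, Mmp7 and Mmp13) were above the floor on TNBS-w6 and on no other. Mmp7, matrilysin, an epithelial enzyme that activates defensins, read 84.1 there and between 2.7 and 14.7 elsewhere. Mmp13, a collagenase, read 55.2 there and between 19.2 and 33.7 elsewhere. Among the 3935 genes of the array that failed the filter, 2.26% were above the floor on TNBS-w6 alone, and between 0.36% and 2.01% on each other array alone.

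Timp1, a secreted inhibitor of many metalloproteases that also acts as a growth factor, read 69.8 and 286.5 on the Saline-w6 arrays. It read 476.7 in TNBS-w6, 135.8 in Saline-w10, and 81.5, 40.9 and 154 in TNBS-w8, TNBS-w10 and TNBS-w12. The week 6 TNBS signal was the highest of all, the week 10 TNBS signal alone was under the floor, and the remaining TNBS signals lay within the range of the saline arrays. The repeat arrays, both of RNA from the 5 Saline-w6 mice, differed 4.10-fold. This was the largest difference between them among the 4316 genes tested, and no other gene reached it (0.0232% of genes). It was 2.04 on the log2 scale, 2.02 with equal array medians and 2.10 with quantile normalization.

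Against the mean of both saline arrays Timp1 was 3.37-fold higher at week 6. Against the first array alone it was 6.83-fold higher, and against the second array alone 1.66-fold, which is under 2-fold. Without the first array, 2 of the 6 genes instead of 3 were therefore at least 2-fold different at week 6. Against Saline-w10 TNBS-w6 was 3.51-fold higher. At week 8 Timp1 was 1.67-fold lower than in Saline-w10, at week 10 at least 2.72-fold lower, and at week 12 1.13-fold higher. Apart from week 10, these differences from a pool mean, the 3.37-fold at week 6 included, are all smaller than the 4.10-fold between the repeat arrays. The week 10 difference is a lower bound and cannot be ranked against that value. A second Timp1 probe set read between 0.4 and 13.4 on all arrays and gave no level, and with the mean of both probe sets Timp1 was at 0.88 on the log2 scale at week 6 and at -0.72 at week 10, under 2-fold. With a floor of 100 its week 10 difference was -0.44.

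**Figure D3:**
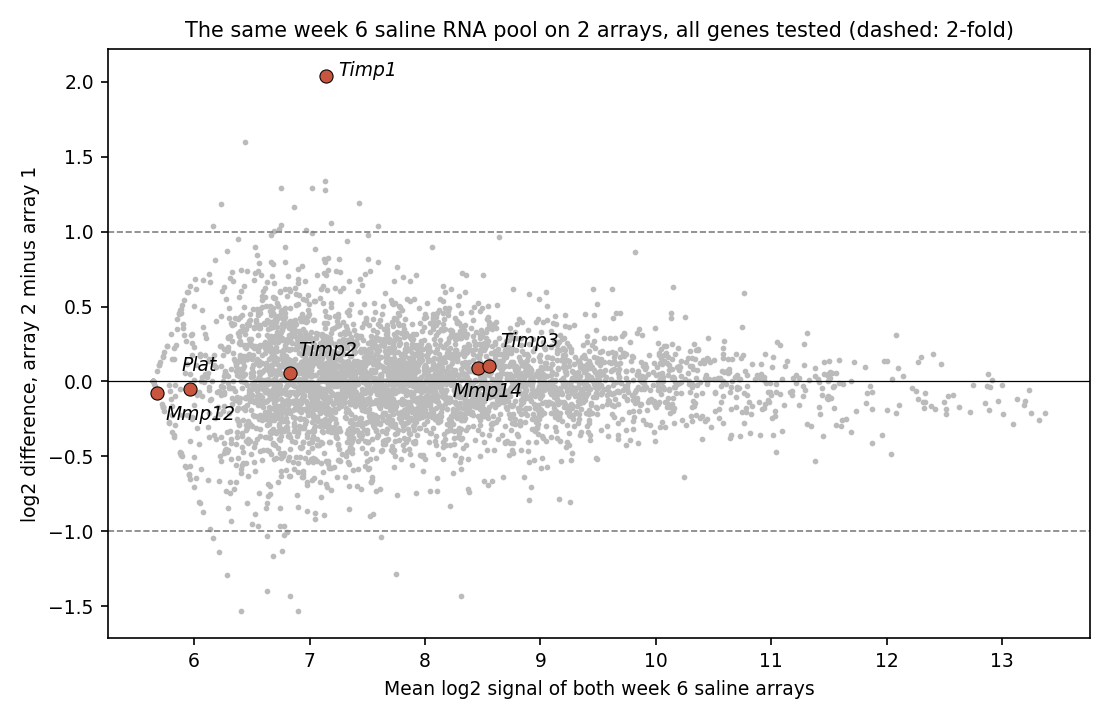
Difference between the Saline-w6 arrays (log2, array 2 minus array 1) against their mean log2 signal, for the 4316 genes tested as grey points and the 6 tested genes of the protease system as red points; dashed lines mark 2-fold. Timp1 lies at 2.04, above every other gene, while the other 5 lie between -0.08 and 0.11.

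Timp2, an inhibitor that also links pro-Mmp2 to Mmp14 at the cell surface, was lower in every TNBS pool than on every saline array. It read 111.7 and 116.4 on the Saline-w6 arrays and 86.9 in Saline-w10. The TNBS pools read 67.1 at week 6, 64.1 at week 8, 76.4 at week 10 and 64.9 at week 12. The groups did not overlap, which held in this direction for 6.12% of all genes tested. Timp2 lay below its matched saline pool in 4 of 4 comparisons, as did 15.3% of genes. Since Timp2 passed the filter through Saline-w6 alone, that pool had to be high, which favoured a lower signal under TNBS. The log2 differences were -0.76 at week 6, -0.44 at week 8, -0.19 at week 10 and -0.42 at week 12, none of them 2-fold. The size of these differences depended on the control and the floor. At week 6 it was -0.37 against Saline-w10, -0.49 with log2(value + 50) and -0.19 with a floor of 100. Against Saline-w6 the differences at weeks 8, 10 and 12 were -0.83, -0.58 and -0.81, and with a floor of 100 the later matched differences were 0. The other 2 probe sets of Timp2 read between 0.9 and 20.6 on all arrays.

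Timp3, an inhibitor that is bound to the matrix and also blocks Adam17, was level across the series. Its signals were 363.3 and 391 on the Saline-w6 arrays, 390.4 in Saline-w10, and 380.5, 400.6, 427.1 and 341.4 in TNBS-w6, TNBS-w8, TNBS-w10 and TNBS-w12. The highest pool was 1.25-fold above the lowest, and no neighbouring pools differed beyond the spread of the repeat arrays. Between the pools Timp1 spanned at least 9.53-fold, Mmp12 at least 6.52-fold, Plat at least 3.09-fold, Timp2 1.78-fold and Mmp14 1.57-fold.

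Plat, tissue plasminogen activator, which endothelial cells are known to make, read 63.7 and 61.4 on the Saline-w6 arrays and 154.4 in TNBS-w6. It read 46.5 in Saline-w10 and 65.2, 59.8 and 43 in TNBS-w8, TNBS-w10 and TNBS-w12. TNBS-w6 stood alone, 2.47-fold above its saline pool, and 1.24 on the log2 scale above the next pool, whereas the other neighbours in its order differed by no more than 0.26. Since Plat passed the filter through TNBS-w6 alone, that pool had to be high. At week 8 and week 10 Plat was at least 1.30-fold and 1.20-fold higher than Saline-w10, and at week 12 both lay under the floor. With a floor of 100 the week 6 difference of Plat was 0.63 on the log2 scale, and with log2(value + 50) it was 0.86, both under 2-fold. Plau, urokinase, read 50.5 on the first Saline-w6 array and between 12.7 and 35.3 on the other 6, so no difference can be given for it.

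**Figure D4:**
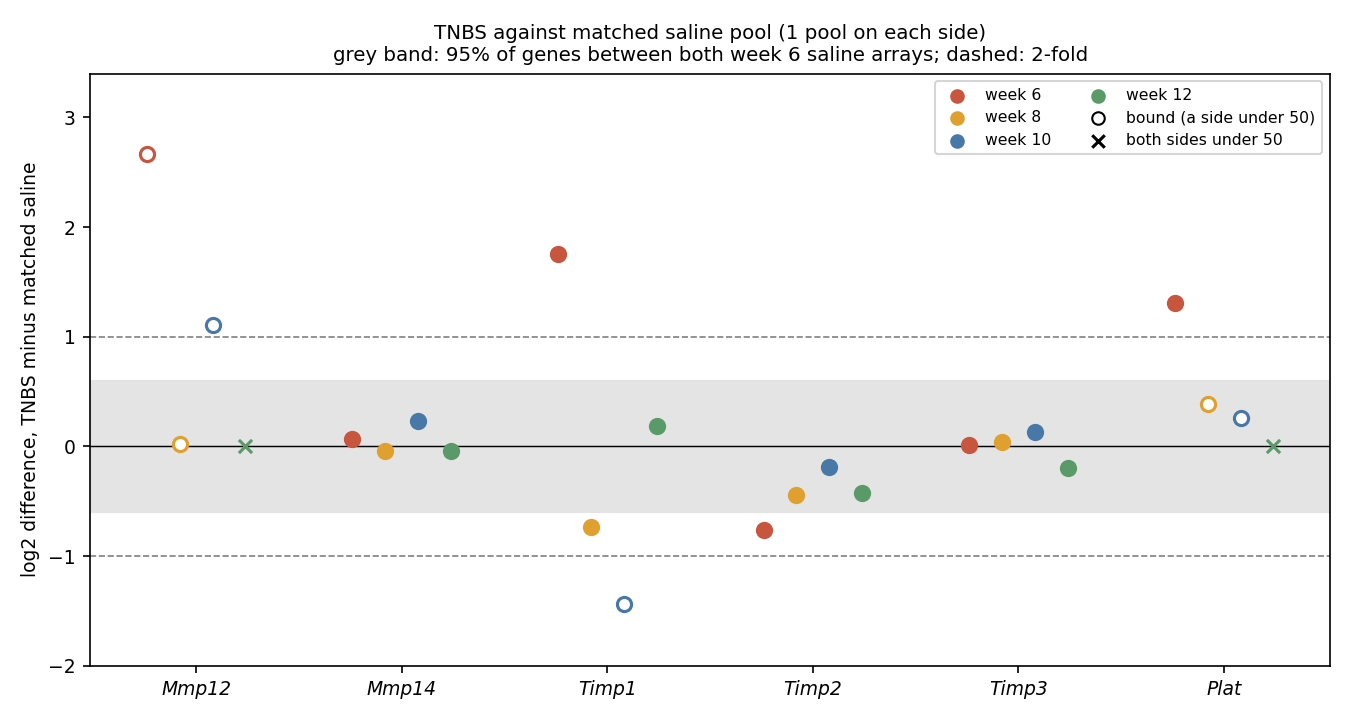
Difference of each TNBS pool from its matched saline pool (log2) for the 6 tested genes, with weeks in colours, open circles where a side lies under the floor, and crosses where both do; the grey band holds 95% of genes between the repeat arrays and dashed lines mark 2-fold. Mmp12, Timp1 and Plat lie above 1 at week 6, Mmp12 again at week 10, and Timp1 lies at -1.44 at week 10.

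The pools were also compared with linear models in limma, in which TNBS pools of different times stand as replicates, so that change over time is part of the error. Over all 6 pools, with a term for which saline pool is the control, Mmp12 had a log2 estimate of 1.29 (SE 0.53, limma adjusted p = 0.886). Its matched difference at week 8 was 0.03, with Saline-w10 raised to the floor, and at week 12 both pools lay under the floor. Timp2 was at -0.52 (SE 0.25, limma adjusted p = 0.886) and Plat at 0.65 (SE 0.33, limma adjusted p = 0.886). Both passed the filter through a single pool, Saline-w6 for Timp2 and TNBS-w6 for Plat, which favoured a difference of this sign. Timp1 had an estimate of 0.30 with a 95% interval of -1.02 to 1.62, Mmp14 of 0.06 (-0.33 to 0.45) and Timp3 of 0.00 (-0.38 to 0.38). The number of the 6 genes with a limma adjusted p under 0.05 was 0, and over all 4316 genes it was 0 as well (0%). At an unadjusted p under 0.05 limma called 221 genes (5.12%), Mmp12 among them.

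In the model of the 3 later TNBS pools against Saline-w10, none of the 6 genes or of all genes passed limma's adjusted p of 0.05 (0%), and 79 genes (1.83%) had an unadjusted p under 0.05, none of them among the 6. Timp1 was at -0.67 with a 95% interval of -2.19 to 0.86, and Mmp12 at 0.38 (-0.86 to 1.61). The interaction term asks whether the TNBS effect at week 6 differed from the later effect. It was 2.42 for Timp1 (SE 0.97), 2.29 for Mmp12 (SE 0.80) and 1.09 for Plat (SE 0.47), each with a limma adjusted p = 0.999. Mmp14 and Timp3 were both at 0.02 and Timp2 at -0.42. By limma 0 genes passed the adjusted threshold (0%) and 80 (1.85%) had an unadjusted p under 0.05, Mmp12 and Timp1 among them. With a floor of 100 the interaction passed for 3 of the 6 genes (Mmp12, Timp2 and Plat) and for 185 genes in all, where pools raised to the floor have no spread.

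**Figure D5:**
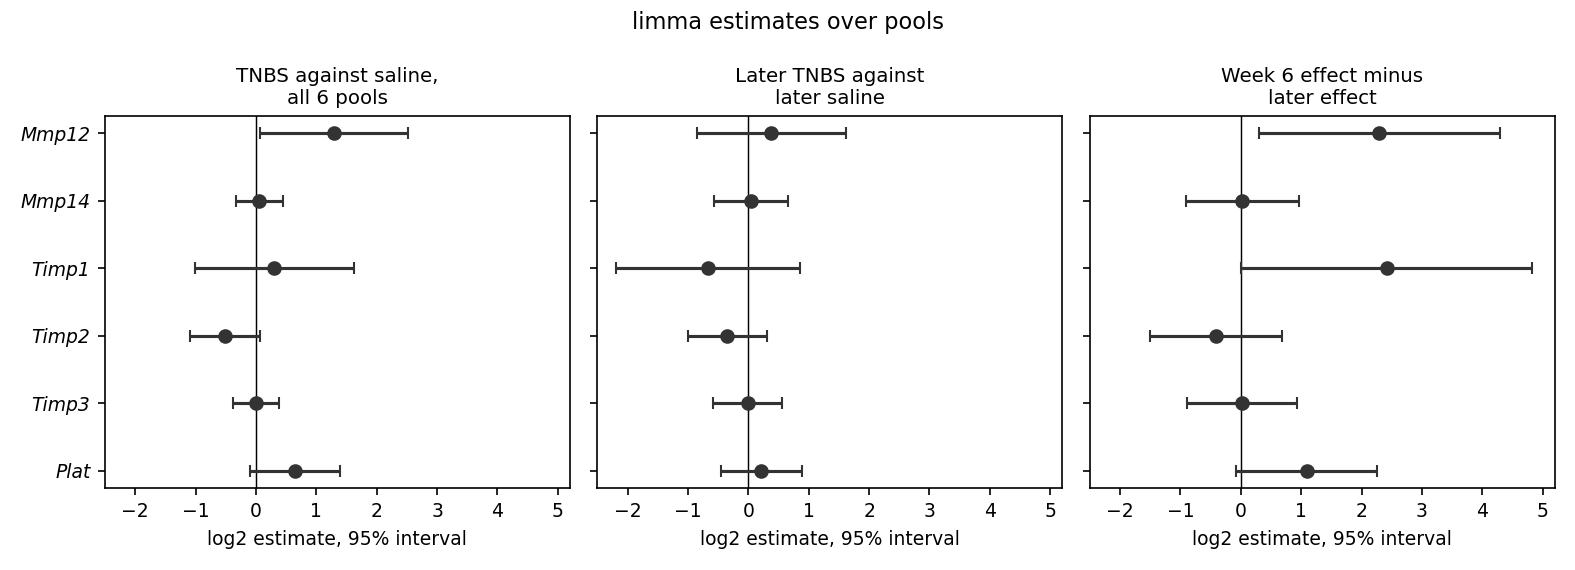
limma estimates (log2) with 95% intervals for the 6 tested genes: TNBS against saline over all 6 pools, the later TNBS pools against Saline-w10, and the week 6 effect minus the later effect. The intervals of Mmp14 and Timp3 are the narrowest in the first panel, and those of Timp1 and Mmp12 the widest in all panels.

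The other genes of the plasminogen system were measured in part. Of 17 on the array 7 were tested. Apart from Plat none was at least 2-fold different in any matched comparison, beside 1.48% to 3.54% of all genes. The median log2 difference of the 7 was 0.38 at week 6 and between -0.10 and 0.13 later. Anxa2 and S100a10, which form the cell surface receptor of Plat and plasminogen, read 3732.1 and 3505.7 in TNBS-w6, above the 2349.1 and 2419.4 (Anxa2) and 2331.9 and 2091.6 (S100a10) of the Saline-w6 arrays. Saline-w10, at 3306.2 and 2994.5, was above the Saline-w6 arrays too. Plaur, the urokinase receptor, failed the filter with 78.4 in TNBS-w6 and 62.9 in TNBS-w8, and it was under the floor on the other 5 arrays. The plasmin inhibitor Serpinf2 read 161.1 and 130.5 on the Saline-w6 arrays and 162.3 in TNBS-w6, and between 81.4 and 102.9 on the 4 later arrays.

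The list of metalloprotease inhibitors and related genes had 8 on the array. Pcolce, a collagen-processing protein listed for its Timp-like domain and not as an inhibitor, was the only tested gene beside the Timps. Its matched differences were all under 2-fold. Reck, a membrane-anchored inhibitor, failed the filter with signals of 58 to 92.8. Of 14 adamalysin and related proteases 7 were tested. Adam19 read 53.3 and 59.2 on the Saline-w6 arrays and 133.2 in TNBS-w6, 2.37-fold higher, and 38.9 to 67.9 on the later arrays. It passed the filter through TNBS-w6 alone, so that pool had to be high. Adam28, a lymphocyte protease, was at least 2.31-fold higher at week 12, with 115.7 against 32.9, but read 79 and 110.6 on the Saline-w6 arrays without TNBS. As the mean of those arrays was 93.5, Adam28 passed the filter through TNBS-w12 alone. The median of the 7 lay between -0.20 and 0.07 in the 4 comparisons.

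Known inducers and regulators of metalloproteases were measured in part. Of 25 on the array 11 passed the filter and were tested, beside 4316 of all 8251 genes. Under the floor on every array lay 12, among them Tnf, Il1a, Il6 and Tgfb1. Il1b read 135.2 in TNBS-w6 and between 2.8 and 10 on the other 6 arrays, at least 2.70-fold higher. It passed the filter through that pool alone. Cebpb, a transcription factor of the acute phase response, was above saline in all 4 comparisons, by 0.83, 0.16, 0.78 and 0.63 on the log2 scale, a pattern that 11.6% of all genes shared. Jund, a component of AP-1, was 2.26-fold lower at week 12. Fos read 441.5 and 440.4 on the Saline-w6 arrays and between 626.7 and 778 on the other 5, Saline-w10 included.

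Of the matrix proteins that these enzymes cut, 21 of 29 on the array were tested. At week 6, 18 of the 21 lay above 0 with a median of 0.34, beside -0.02 over all genes, and at week 12, 16 lay below 0 with a median of -0.23, beside 0 over all genes. Col5a2, a chain of type V collagen, was 2.31-fold higher at week 6, and its log2 differences at weeks 8, 10 and 12 were 0.93, 0.50 and 0.11. Lamc1, a laminin chain, was at least 2.47-fold lower at week 12. Fibroblast markers had medians between 0.08 and 0.22 in the 4 comparisons. None of the 12 tested genes was 2-fold different, beside 1.48% to 3.54% of all genes, shares too small to set 12 genes apart.

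The genes most like each member over the 6 pools were found by Pearson's r of log2 signals among 4233 genes, as a description of 6 points that share their arrays. Mmp12 was most like Osmr, the receptor of oncostatin M (r = 0.99). Osmr read 172 in TNBS-w6, 72.1 at week 10, and 38.6 to 56.1 on the other arrays, so it passed the filter through TNBS-w6 alone. Next came Qk and Cyba, a subunit of the phagocyte oxidase (both r = 0.98). Without TNBS-w6, r was 0.95 for Osmr, 0.87 for Qk and 0.84 for Cyba. Timp1 was most like Itsn1, Mcm2 (both r = 0.99) and Col5a1 (r = 0.97). Mmp14 was most like Pex14, Tmem70 and the proteoglycan Bgn (each r = 0.98). Timp2 was most like Ighm, the IgM heavy chain (r = 0.98), followed by Hand1 and Rbck1 (both r = 0.96), and Ighm read 5404 and 4926.3 on the Saline-w6 arrays, 3803.3 in Saline-w10 and 3107 to 3729.5 in the TNBS pools. Plat was most like Psme1, Wdr92 (both r = 0.99) and Dlk1 (r = 0.98), and Timp3 like Gle1, Map7d1 and Rab12 (r = 0.98, 0.96 and 0.94). Without TNBS-w6, r was 0.88, 0.81 and 0.75 for Psme1, Wdr92 and Dlk1, and Dlk1 passed the filter through that pool alone. For the genes most like Timp1, Timp2, Timp3 and Mmp14, r without that pool was 0.93 to 0.99.

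Between members, r was 0.91 for Mmp12 and Plat over the 6 pools, and 0.23 over the 5 pools without TNBS-w6. For Mmp12 and Timp1 it was 0.56 and, without that pool, -0.86, since TNBS-w10 held the second highest Mmp12 and the lowest Timp1 signal. For Mmp14 and Timp2 it was 0.42, and 0.85 without that pool. The likeness of Mmp12 and Plat thus rests on a single pool.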

How the data were processed

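Each array's probe sets carry an intensity, linear and not logged, as deposited. According to the labels, the authors computed these with Affymetrix Microarray Suite 5.0 and brought every array to a target of 150; a check of the files gave a 2% trimmed mean of 150 on each. Mice of a group were pooled as RNA before labelling, per the labels. No genome build is given in the sources used here. Of 12488 probe sets 66 controls were left out, and 10833 had 1 symbol in the platform annotation of 2016, 396 several and 1193 none. Entrez identifiers of 10817 were found in RefSeq (GRCm38.p6) to update symbols. Each gene was represented by its probe set with the highest mean. Values under 50 were set to 50 before log2, the repeat arrays were averaged on the log2 scale, and a gene was kept if its highest pool reached 100.

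A matched comparison sets a single pool against a single pool, so it has no test, and genes were counted from 2-fold on. limma 3.58.1 under R 4.3.3 fitted the models to all 4316 genes (moderated variances with an intensity trend, Benjamini-Hochberg, threshold 0.05, two-sided, 3 residual degrees of freedom in the pooled model and 2 in the others). The fits were also run on simulated data with noise at the level of the repeat arrays. That noise holds no variation among mice or over time, so the run does not show how the models perform on these pools. Their p-values measure the spread between pools. Saline-w10 is alone in the late model, which gives it the variance of the TNBS pools. The number of arrays, 7, limits the precision. The members and lists were chosen with earlier results of these data known. Lists covered 257 symbols, of which 216 were on the array. All 9 genes are described, up to 6 genes of a list that were at least 2-fold different, and the 3 genes most like each tested member among those above the floor in at least 4 pools. Genes named outside this rule were chosen after their values were seen. Alternatives changed the floor, the log scale, the probe sets, the scaling, the filter, the control pool, the model and the arrays used.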

Additional observations from a re-analysis of the deposited data

How the results depend on the processing

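At week 6 the number of the genes at least 2-fold different, 3, was 2 or 3 under the 11 alternatives (2 to 3 when a saline array was left out). At week 8 and week 12 it was 0 under each of 9. The week 10 count of 2 became 0 with a floor of 100 and with the mean of probe sets, and 1 with log2(value + 50), where Mmp12 was under 2-fold. With a floor of 100 the log2 differences at week 10 were 0.11 for Mmp12 and -0.44 for Timp1, since a higher floor shortens differences of dim genes. The mean of probe sets left 5 genes tested, without Timp2. Timp1 at week 6 ranged from 0.73 to 2.77 on the log2 scale and Plat from 0.63 to 1.63, each at least 2-fold in all but 2 alternatives, and Mmp12 from 1.38 to 2.79. With equal medians Mmp14 was at 0.13 at week 8 and 0.02 at week 12, above 0 in place of below. Over all genes the calls ranged from 84 to 200 at week 6 (153 as reported), 63 to 280 at week 8 (141), 22 to 144 at week 10 (64) and 27 to 145 at week 12 (69).

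Of 42 alternative model fits 40 called none of the genes. The interaction called 3 with a floor of 100 (Mmp12, Timp2 and Plat, limma adjusted p = 0.021, 0.02 and 0.01; 185 genes in all) and 2 without the low-value filter (Mmp3 and Plau; 488 in all). In the latter all 4 later pools of both genes lay at the floor, and with a floor of 100 all 3 later TNBS pools of Timp2 and Plat did. For Mmp12 that floor held Saline-w10, TNBS-w8 and TNBS-w12, and TNBS-w10 lay 0.11 above it on the log2 scale. The residual spread of all these genes was thus near 0 by construction. Without the filter the pooled model called 17 genes and the late model 182. With a floor of 100 the late model called 68, and without the week 12 pool the pooled model called 2, against 0 as reported. No paired analysis was possible because the groups hold 1 pool each, and only the Saline-w6 arrays carry replicate numbers. Depth in the sense of signal over background limits Mmp2, Mmp3 and Plau, which were under the filter.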

Other observations

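Genes that differed most between the Saline-w6 arrays after Timp1 were Ctrl, a pancreatic chymotrypsin-like enzyme (32 and 151.6, at least 3.03-fold), Chrne (202.6 and 70.1), Rab3a (144.3 and 35.4) and Arih1 (522.3 and 193.5). They were named after their values were seen.

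Marker lists of other cell types gave these median log2 differences at week 6. Smooth muscle had -0.16 over 10 genes and epithelium -0.05 over 11, beside -0.02 over all genes tested. Mast cells had 1.79 over the 5 tested of 11 on the array, and pancreas 2.39 over 8. Mcpt2, Pnliprp1 and Cela2a passed the filter through TNBS pools alone, which favoured a difference in them. Below the filter the mast cell markers Cma1 and Cpa3 were at 0.64 and 0.65, and Mcpt4, Tpsab1, Ms4a2 and Hdc lay under the floor on every array. Of 12 neutrophil markers 3 were tested. S100a8 and S100a9, which passed the filter through TNBS-w6 alone, were at least 4.03-fold and 3.18-fold higher, and Csf3r was at -0.10 on the log2 scale, which gives a median of 1.67 that rests on the filter. Below the filter Lcn2 was at 0.01, Elane at 0.04 and Camp at -0.12, and Mpo, Ltf, Ngp, Cxcr2, Mmp8 and Mmp9 lay under the floor on every array. Adipose markers had 0.41 over the 4 tested of 8 on the array, and squamous epithelium 0.43 over the 3 tested of 10. Of 11 endothelial markers 1 was tested, at 0.31.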
